A study of Bos taurus with 12 samples.

Results

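The Krüppel-like factors (KLFs) were described in the mammary gland (MG) of Holstein cows, before and during a feed restriction. The 10 genes KLF2, KLF3, KLF4, KLF5, KLF6, KLF9, KLF10, KLF11, KLF13 and KLF15 were taken, of 12787 genes that had a named probe on the array. A probe belonged to a gene when the RefSeq transcript that the scanner files give for it carried that gene's symbol. For 9 of the 10 genes this gave 21 probes, and KLF2 had none. The genes were chosen by a rule that used their normalized signals in REST against CONT, paired by animal. The differences between the periods are therefore given below as a description and without a test.

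The CONT group held the day 0 biopsies of 6 midlactation cows fed ad libitum. The REST group held the day 6 biopsies of the same cows, whose allowance had been cut to 50% of their net energy requirement for lactation. No cow on full feed was sampled on day 6, so the effect of the ration and that of time, or of a second biopsy, cannot be told apart. According to the methods, the biopsy site alternated between the rear glands of the udder. The labels name 6 cows and the series description counts 5, so the changes of the named members, called genes and genes most alike to KLF11, and the counts of calls, were also computed without each of the cows. The methods state that a Holstein cow left the experiment with mastitis, and the labels do not show whether it is among these 6. The cow is given by its replicate number, the same number in CONT and in REST for the same animal. The biopsy is a whole tissue sample, in which fewer cells of a type and less RNA per cell cannot be told apart.

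KLFs are transcription factors that bind GC-rich and CACCC elements of promoters through zinc fingers at their carboxy-terminal end. Their amino-terminal parts differ and recruit either corepressors, such as the SIN3 and CtBP proteins, or coactivators. Members of the family act in epithelial proliferation and differentiation, in adipocyte formation and in the response of liver and muscle to fasting, and several of them are induced within hours by hormones and growth factors.

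Signals are given on a log2 scale, relative to the 75th percentile of the array, so that a signal of 0 equals that percentile and a difference of 1 is a 2-fold difference. Probes differ in their own brightness, so a signal is compared between arrays and not with that of another probe. Of the 45220 spots per array, 43803 were not controls, and no spot was saturated (0 per array). The 12 arrays lay on 3 slides of 4 arrays. Cows 1 and 2 were on slide 1, cows 3 and 4 on slide 2, and cows 5 and 6 on slide 3, with both periods of a cow on the same slide. Slide 3 was dimmer: the 75th percentile was 73.2 to 117 intensity units there and 252 to 390.0 on the other slides. There, 41.9 to 48.0% of the spots stood well above background, against 61.8 to 67.9% on the others.

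KLF11 showed the widest difference between the periods of the 8 tested members, 3.66-fold higher in REST, and KLF10 and KLF4 were also higher in REST in every cow. KLF13 was lower in every cow with its brightest probe, by a small amount, but not with its other 2 probes. KLF5 and KLF6 changed by more than 1 log2 unit in some cows and in the opposite direction in others, and KLF3 and KLF15 differed little. The signals of 8 members were bright enough to be tested, and KLF9 was not. In the fit over all probes that paired the arrays of a cow, the brightest probes of 4 of these 8 passed the threshold set for all genes (adjusted p below 0.1), those of KLF4, KLF10 and KLF11 higher and that of KLF13 lower. Over all tested genes, 16.2% were called, 6.95% higher and 9.27% lower. Without the pairing, 3 of the 8 were called, KLF4, KLF10 and KLF11, all higher, against 4.41% of all tested genes, 1.60% higher and 2.81% lower. The CONT and REST arrays did not overlap for these 3, nor for 2.28% of all tested genes, and 4 members had the same direction in all 6 cows, as had 18.3% of all tested genes. The members were picked with these values known, so these counts are no test of the members and nothing is read from them. The median change of the 8 members was 0.26, and that of all tested genes was -0.01.

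**Figure D1:**
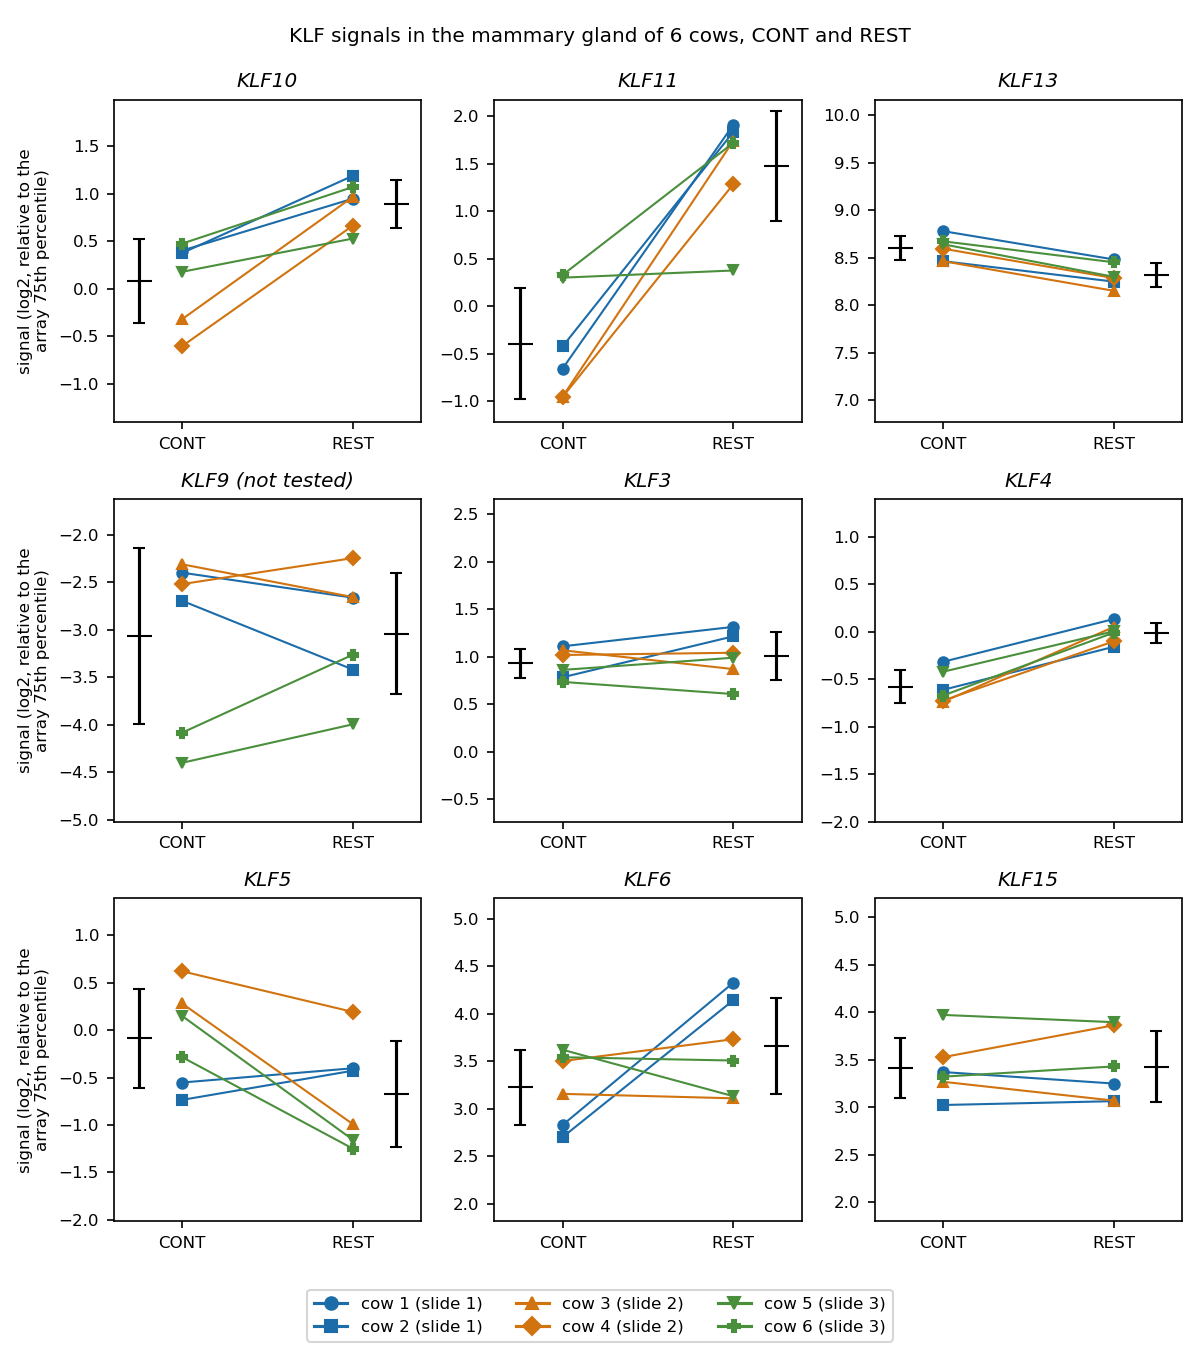
Signal of the brightest probe of 9 KLF genes in CONT and REST, in log2 units relative to the 75th percentile of the array. Lines join the 2 arrays of a cow, colours mark the slide, and black bars give mean ± SD (n = 6); every panel spans the same number of log2 units. The CONT and REST arrays did not overlap for KLF4, KLF10 and KLF11, and the line of cow 5 was nearly flat for KLF11 (0.08).

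KLF10 and KLF11 are the TGF-beta-inducible early genes of the family, and both proteins repress transcription through the SIN3A corepressor. KLF11 (NM_001190301) had a signal of -0.96 at the lowest, -0.54 at the median and 0.33 at the highest in CONT. In REST the lowest was 0.38, the median 1.73 and the highest 1.91. The periods did not overlap, but the lowest REST array, that of cow 5, was just above the highest CONT array, that of cow 6. The change, REST minus CONT, was 2.57, 2.26, 2.69 and 2.24 in cows 1 to 4, 0.08 in cow 5 and 1.39 in cow 6. Its mean was 1.87 ± 0.99 (SD, n = 6). Of the 7932 tested genes, 12 (0.151%) had a mean change at least as large in either direction, KLF11 included.

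The smaller change of KLF11 in cows 5 and 6 came with higher CONT signals. These were 0.30 and 0.33, against -0.96 to -0.42 in cows 1 to 4. In REST, cow 6 (1.72) lay among the cows of the other slides, and cow 5 (0.38) lay below them. Both cows were on the dimmer slide, whose mean change was 0.73, against 2.41 on slide 1 and 2.47 on slide 2. The part of the dimmer slide in this was not tested. Leaving out cow 5 raised the mean change to 2.23, and leaving out cows 5 and 6 raised it to 2.44.

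The second probe of KLF11 gave a similar picture, but with a wider change in cow 5 than the brightest probe (0.08). Its changes were 2.51, 2.33, 2.78 and 2.19 in cows 1 to 4, 0.53 in cow 5 and 1.46 in cow 6, with a mean of 1.96 ± 0.83 (SD, n = 6). The signals of both probes correlated over the 12 arrays with r = 0.993, and the largest gap between their changes was 0.45, in cow 5. The dimmest probe stood above background on 4 of 6 REST arrays and in none of the 6 CONT samples (0 of 6), with mean signals of -3.35 and -5.15. For a rough size, each CONT signal was replaced by the lowest signal that counted as well above background on its array, where that was higher. The mean of the 6 REST arrays was then 1.49-fold higher. On slide 3 the probe was well above background on 0 of 4 arrays, and the REST arrays of that slide entered this mean. The value is therefore not a strict lower bound.

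KLF10 (NM_001168462) was measured by a single probe. In CONT its signal was -0.61 at the lowest, 0.28 at the median and 0.47 at the highest, and in REST 0.53, 0.96 and 1.19. The periods did not overlap, and as for KLF11 the lowest REST array was that of cow 5 and the highest CONT array that of cow 6. The change was 0.55 and 0.81 in cows 1 and 2, 1.29 and 1.27 in cows 3 and 4, and 0.35 and 0.60 in cows 5 and 6, with a mean of 0.81 ± 0.39 (SD, n = 6), or 1.75-fold. The wider changes of cows 3 and 4 started from the lowest CONT signals (-0.32 and -0.61). Over the 12 arrays, KLF10 was the member whose signal correlated most with that of KLF11 (r = 0.90).

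KLF13 and KLF9 also repress through SIN3A. KLF13 is known from T lymphocytes, where it activates the chemokine gene CCL5, and KLF9 is induced by glucocorticoids and thyroid hormone and interacts with the progesterone receptor. The 3 probes of KLF13 (NM_001083533) disagreed. With the brightest, the signal was 8.46 at the lowest, 8.62 at the median and 8.78 at the highest in CONT and 8.15, 8.29 and 8.48 in REST, so that the highest REST array lay just above the lowest CONT array. Every cow was lower in REST, by -0.34 to -0.22, with a mean change of -0.28 ± 0.05 (SD, n = 6). The other 2 probes were much dimmer, with mean CONT signals of 2.45 and 0.60 against 8.60, but also well above background on all arrays. Their mean changes were -0.08 ± 0.21 and 0.02 ± 0.23 (SD, n = 6), and they were lower in 3 and 2 of the 6 cows. They followed each other over the 12 arrays (r = 0.82) and the brightest probe only weakly (r = 0.35 and 0.15). The 3 probes gave no common direction for the gene. KLF9 (NM_001193214) was near the detection limit. Both of its probes were well above background on 4 of 6 arrays in each period, on all arrays of slides 1 and 2 and on none of slide 3 (0 of 4). Its mean changes were 0.03 ± 0.57 and -0.10 ± 0.39 (SD, n = 6).

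KLF3, a repressor that works through CtBP and restrains adipocyte formation, had a single tested probe (NM_001205978). Its signal was 0.73 at the lowest, 0.94 at the median and 1.11 at the highest in CONT and 0.61, 1.01 and 1.31 in REST. The periods overlapped, and 4 of 6 cows were higher in REST, with a mean change of 0.08 ± 0.23 (SD, n = 6). With 1 cow left out, the mean change lay between 0.0062 and 0.13. A second, dim probe was well above background on 4 of 6 arrays in each period and had a mean change of 0.21 ± 0.35 (SD, n = 6).

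KLF4, KLF5 and KLF6 activate many of their targets. KLF4 is a factor of epithelial differentiation and of endothelial cells, KLF5 marks proliferating cells of basal epithelial layers, and KLF6 responds early to tissue injury. KLF4 (NM_001105385) had a signal of -0.74 at the lowest, -0.64 at the median and -0.32 at the highest in CONT, and of -0.16, -0.0039 and 0.13 in REST. The periods did not overlap. The change was close to even across cows, with 0.45 in each of cows 1 and 2, 0.79 and 0.62 in cows 3 and 4, and 0.43 and 0.66 in cows 5 and 6. Its mean was 0.57 ± 0.15 (SD, n = 6), or 1.48-fold, and on the dimmer slide 3 the mean was 0.54, between those of slide 1 (0.45) and slide 2 (0.71). A second probe, well above background on 3 CONT and 4 REST arrays, had a mean change of 0.53 ± 0.56 (SD, n = 6) and was higher in 5 of 6 cows.

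KLF5 (NM_001083727) had a signal of -0.74 at the lowest, -0.07 at the median and 0.62 at the highest in CONT and of -1.25, -0.71 and 0.19 in REST. The mean change was -0.58 ± 0.71 (SD, n = 6). It was -0.38 with normexp background correction before the 75th percentile shift, and -0.31 without cows 5 and 6. The sign of the change depended on the cow. Both cows of slide 1 were higher in REST (0.15 and 0.31), and the other 4 were lower (-1.27, -0.43, -1.30 and -0.96 in cows 3 to 6). The 2 cows that were higher in REST had the lowest CONT signals (-0.55 and -0.74). The dimmer probes of KLF5 gave the same signs, higher in cows 1 and 2 and lower in cows 3 to 6, with mean changes of -0.05 and -0.22, and each was well above background on 1 of the 4 arrays of slide 3.

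KLF6 (NM_001035271) had a signal of 2.70 at the lowest, 3.33 at the median and 3.62 at the highest in CONT and of 3.11, 3.62 and 4.33 in REST. The change was 1.50 and 1.44 in cows 1 and 2, and between -0.49 and 0.23 in the other cows. The mean, 0.43 ± 0.84 (SD, n = 6), rested on slide 1, where it was 1.47, against 0.09 on slide 2 and -0.26 on slide 3. All 3 probes showed this, with means of 1.45 and 1.59 on slide 1 for the other 2 probes. In cows 1 and 2, the CONT signal of KLF6 was the lowest of the 6 and the REST signal the highest. Slide and pairs of cows cannot be told apart here, since each slide held 2 cows.

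KLF15 is induced by glucocorticoids and by fasting, and drives genes of amino acid breakdown and of glucose production. Its signal (NM_001082425) was 3.02 at the lowest, 3.34 at the median and 3.97 at the highest in CONT and 3.06, 3.34 and 3.89 in REST. The periods covered the same range. The mean change was 0.015 ± 0.19 (SD, n = 6), with 3 cows higher and 3 lower, and cows differed from each other by more than the periods did. Its second probe was well above background on 2 CONT and 3 REST arrays and is not used.

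**Figure D2:**
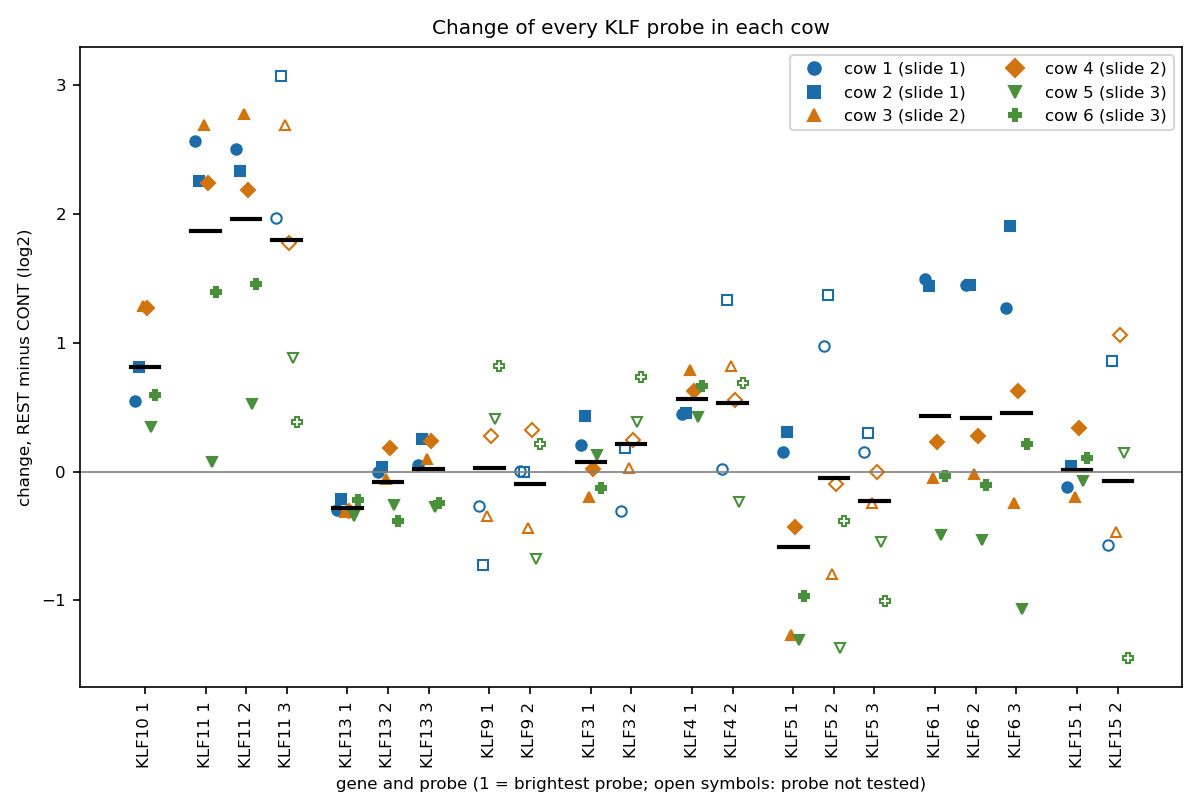
Change (REST minus CONT, log2) of the 21 probes of 9 KLF genes in each of the 6 cows; black lines are means, colours mark the slide, and open symbols are probes too dim to be tested. Over the 6 cows, the changes of the tested probes of KLF11 and of KLF6 follow each other (r of 0.994, and of 0.932 to 0.998). Those of the brightest KLF13 probe do not follow the other 2 (r of -0.168 and 0.139). The cows of slide 1 stand above the others for KLF5 and KLF6.

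The members differed in how evenly the cows changed. The SD of the change over cows was 0.99 for KLF11, 0.84 for KLF6 and 0.71 for KLF5, which was wider than for 99.1%, 98.0% and 96.3% of the tested genes. For KLF10 it was 0.39 (wider than for 79.7%), for KLF3 0.23, for KLF15 0.19 and for KLF4 0.15, and the median of all tested genes was 0.25. The brightest probe of KLF13 had an SD of 0.05, wider than for only 0.29% of the genes. Cow 5 had the lowest change of the 6 cows for 6 of the 8 tested members, KLF4, KLF5, KLF6, KLF10, KLF11 and KLF13, which was noticed after the values had been seen. Over all tested genes, cow 5 was the lowest for 22.4% and the highest for 22.4%, the largest shares of any cow. Cow 3 was the lowest for the remaining 2, KLF3 and KLF15.

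Of 17 other KLF and SP genes, the wider family with the same type of zinc fingers, 5 had a named probe. SP1, a ubiquitous activator that binds the same GC-rich elements, was tested and had a mean change of -0.05 with an SE of 0.07 (n = 6; limma, adjusted p = 0.68). None of the others was bright enough. KLF1, the factor of red cell precursors, and KLF12 were well above background on 0 of 12 arrays. The brighter probe of KLF7 reached that level on 2 CONT arrays and 0 REST arrays, and SP7 on 4 arrays of each period.

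The genes that work with KLF proteins, act upstream of them or are known as their targets were grouped in 6 lists of 60 genes, of which 48 were on the array and 40 were tested. In all, 6 of the 40 (15.0%) were called, all higher in REST. Of all tested genes, 16.2% were called, 6.95% higher and 9.27% lower. Without the pairing, 2 were called, both higher, against 4.41% of all tested genes (1.60% higher). The lists were chosen with earlier results known, and nothing particular to them is read from these shares. Among probes well above background on all 12 arrays, 3 were called, CTBP2, MEF2A and MEF2B, since the probes of TGIF1, MT2A and MAOB were left out there. The median change of the 40 genes was 0.10.

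Among 5 tested corepressors and coactivators, 1 was called. CTBP2, the CtBP corepressor that KLF3 binds, was higher in REST in 6 of 6 cows, by 0.31 with an SE of 0.09 (n = 6; limma, adjusted p = 0.061, 0.162 without the pairing and 0.018 to 0.429 over all alternatives), and 1 of its 4 probes was called. The list had a median change of 0.03. Of 5 ubiquitin ligase genes that take part in the turnover of KLF proteins, 0 were called by limma (1 at an unadjusted p below 0.05, and 0 without the pairing), with a median change of 0.03. Of 6 TGF-beta pathway genes, 1 was called. TGIF1, a corepressor of SMAD proteins, had a signal of -2.29 ± 0.36 in CONT and -1.45 ± 0.33 in REST (SD, n = 6) and was higher in 6 of 6 cows, by 0.84 with an SE of 0.12 (limma, adjusted p = 0.010, 0.036 without the pairing and 0.0026 to 0.139 over all alternatives). Its probe stood well above background in 4 of the 6 CONT samples and in all 6 REST samples, so it was tested through the period in which it is higher, and with normexp background correction before the same 75th percentile shift its change was 0.31. TGFB2, TGFB3, TGFBR2, SMAD2 and SMAD4 were not called with their brightest probes (1 of 3 probes of SMAD4 was), and TGFB1, TGFBR1, SMAD3, SMAD7 and SKIL were too dim to be tested.

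The MEK5-ERK5-MEF2 pathway induces KLF2 and KLF4 in endothelial cells, and 2 of its 5 tested genes were called. MEF2A was higher in 6 of 6 cows, by 0.43 with an SE of 0.09 (n = 6; limma, adjusted p = 0.025, 0.088 without the pairing and 0.0093 to 0.251 over all alternatives), but a second probe of the gene had a change of -0.04 and was not called, the mean of both probes changed by 0.20, and with normexp the change was 0.25. MEF2B was higher in 5 of 6 cows, by 0.50 with an SE of 0.13 (n = 6; limma, adjusted p = 0.050, 0.198 without the pairing and 0.038 to 0.384 over all alternatives), and by 0.19 with normexp. The kinase genes MAP2K5 and MAPK7 had changes of -0.21 and 0.01, neither of them called.

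The glucocorticoid receptor and its targets were included because KLF9 and KLF15 are themselves such targets. Of 9 tested genes, 1 was called, MT2A, a metallothionein. It was higher in 6 of 6 cows, by 0.02 to 1.95, with a mean of 0.88 and an SE of 0.28 (n = 6; limma, adjusted p = 0.088, 0.449 without the pairing and 0.070 to 0.699 over all alternatives). It too was tested through REST, with 5 of 6 CONT arrays and all 6 REST arrays well above background, and with normexp its change was 0.40. The receptor gene NR3C1 had a change of -0.20 and FKBP5, whose protein binds the receptor complex, a change of -0.03, and neither was called with its brightest probe (1 of 3 probes of NR3C1 was). The median of the list was 0.28. Of 10 tested KLF target genes, 1 was called. MAOB, a monoamine oxidase whose promoter KLF11 activates, was higher in 5 of 6 cows, with a mean change of 0.97 and an SE of 0.28 (n = 6; limma, adjusted p = 0.068, 0.255 without the pairing and 0.024 to 0.530 over all alternatives). Its probe, too, stood well above background in 4 of the 6 CONT samples and in all 6 REST samples, and with normexp its change was 0.30. Its change ran from -0.47 in cow 3, which had the widest change of KLF11, to 1.87 in cow 4. PDK4, a kinase that closes the pyruvate dehydrogenase complex in fasting and is named here after its values were seen, had the largest mean change of this list (1.01) and was not called with its brightest probe (limma, adjusted p = 0.161). It was higher in 4 of 6 cows, by up to 2.60 in cow 1, and 1 of its 6 probes was called. The genes that KLF15 drives in amino acid breakdown, BCAT2 and PRODH, had changes of -0.58 and 0.26 and were not called.

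**Figure D3:**
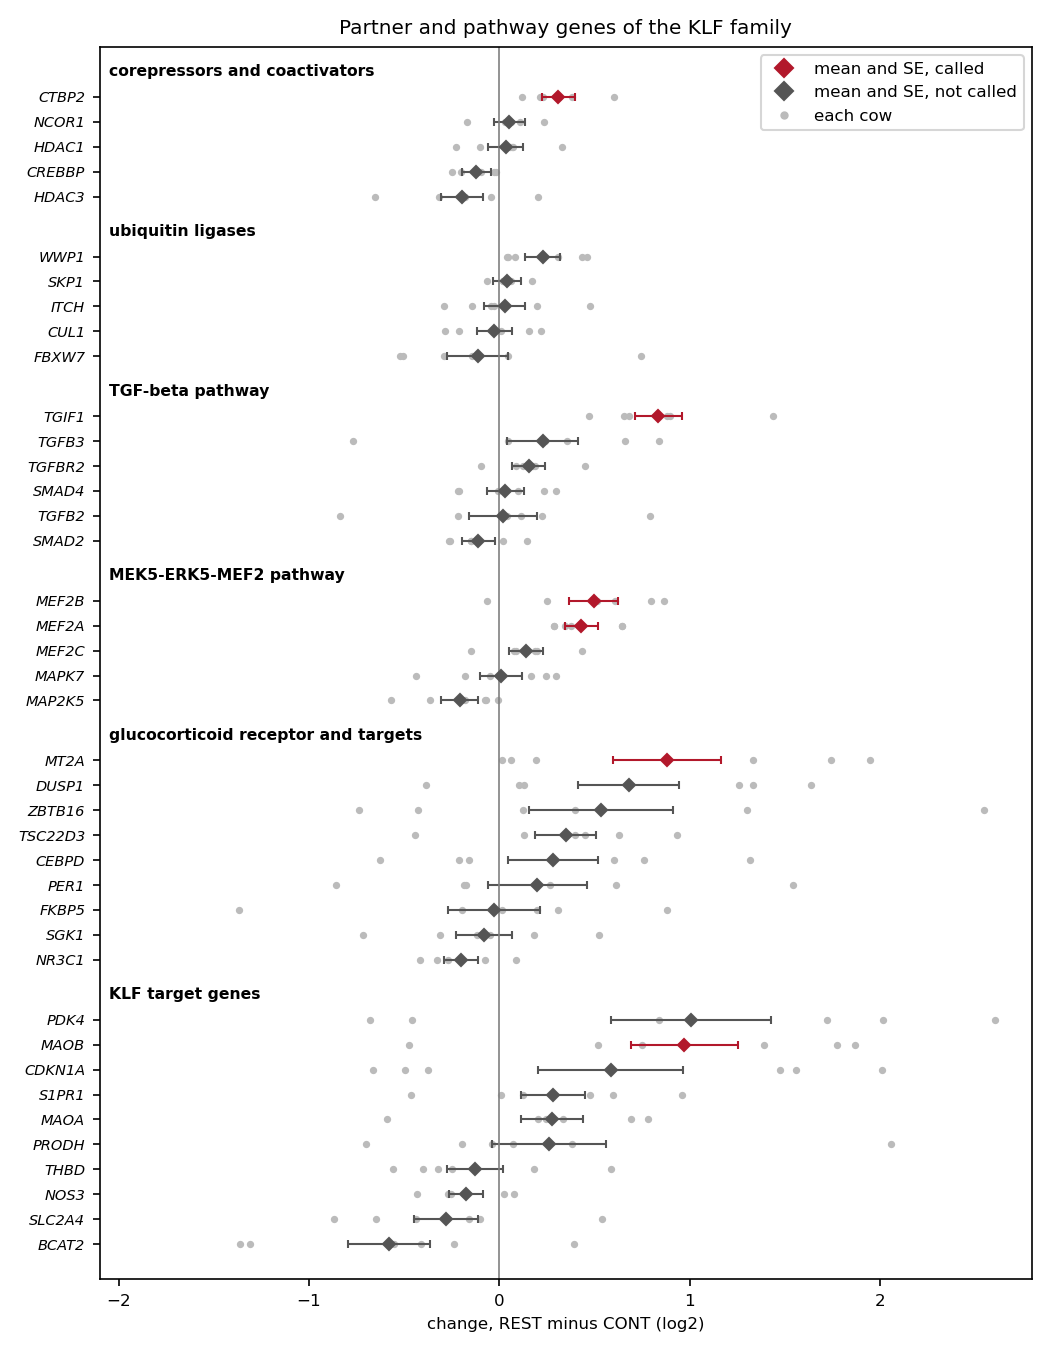
Mean change (REST minus CONT, log2) with its SE for the 40 tested genes of 6 lists of KLF partners, upstream pathways and targets; grey points are the 6 cows, and red marks the 6 called genes. All 6 called genes lie above 0, and the span from the lowest to the highest cow is widest for PDK4, ZBTB16, PRODH, CDKN1A and PER1.

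The makeup of the biopsies was read from markers of the cell types that a gland sample can hold. LALBA, the milk protein gene of secretory cells, and ELF5, a luminal transcription factor, were well above background on the arrays of both periods. The signals of each list were summed on the linear scale, as multiples of the 75th percentile. Such a sum weighs each marker by the brightness of its own probe and can follow 1 or 2 markers. LALBA made up 71.7 to 85.2% of the luminal sum and CLDN5 36.6 to 59.4% of the endothelial sum. It is therefore given as a range and by the cows in which it was higher in REST. These were 0 of 6 cows for the luminal, 6 for the endothelial and 1 for the myoepithelial list, and 3 each for the fibroblast and leukocyte lists. The luminal sum was 1091 to 1552 in CONT and 1019 to 1324 in REST, and the median change of the 6 luminal markers was 0.23, with 4 of 6 above 0. LALBA was lower in REST in 6 of 6 cows, with a mean change of -0.20, and was not called with its brightest probe (1 of its 2 probes was). KRT8 and KRT18 were called higher (2 of 6 markers), with changes of 0.72 and 0.52. Neither was called without the pairing, 1 of the 3 probes of KRT8 had a change of -0.14, the mean of its probes changed by 0.42, and KRT18 lost its call under 16 of 27 alternatives. The endothelial sum was 15.9 to 25.4 in CONT and 24.7 to 33.0 in REST. Of 7 endothelial markers, VWF and CLDN5 were called, both higher, with changes of 0.54 and 0.74, and both were called without the pairing as well. Each lost its call under 4 of 27 alternatives. All 4 probes of VWF were called, and 2 of the 3 probes of CLDN5, whose lowest probe change was 0.32. The other 5 had changes of -0.15 to 0.32 and were not called, and the median change of the 7 markers was 0.13. KLF4 and the unmeasured KLF2 are themselves active in endothelial cells, and the part of these changes in the KLF differences was not tested. Myoepithelial markers summed to 89.8 to 169 in CONT and 74.0 to 153 in REST, with ACTA2 and CNN1 called lower (2 of 6 markers), with changes of -0.38 and -0.53, and a median change of -0.07. Neither was called without the pairing, and ACTA2 lost its call under 18 and CNN1 under 12 of 27 alternatives.

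Of 6 fibroblast markers, 0 were called by limma (2 at an unadjusted p below 0.05, and 0 without the pairing), with sums of 34.2 to 63.9 in CONT and 26.4 to 73.5 in REST. Their median change was -0.36, with 2 of 6 above 0. COL1A1, a collagen gene, had a mean change of -0.54 and was lower in 5 of 6 cows, and 1 of its 3 probes was called. Leukocyte markers summed to 7.89 to 10.5 in CONT and 8.60 to 11.6 in REST, with CD3E, a T cell gene, called higher (1 of 5), by 0.35, a call lost without the pairing and under 17 of 27 alternatives. The median change of the 5 was 0.17. Haemoglobin alpha, the single tested red cell gene, was 13.6 to 19.9 in CONT and 10.3 to 20.3 in REST, with a mean change of -0.33, lower in 5 of 6 cows, and was not called. The adipocyte genes on the array, PLIN1, LEP and CIDEC, were too dim to be tested. CDH1, TP63, ITGAM, HBB and ALAS2 were too dim as well. The part of any of these cell types in the KLF signals was not tested.

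The genes whose signal was most like that of KLF11 were taken from 7330 genes well above background on all 12 arrays. Over the 12 arrays, they were SVBP, which encodes a partner of vasohibin (r = 0.944), RBM39, a splicing factor (r = 0.939), ABTB1 (r = 0.916) and NR1H3, the sterol-sensing liver X receptor alpha (r = 0.914). The points share cow, slide and period, and a gene that differs between the periods gains a high r from that difference. All 4 had a smaller change than KLF11, between 0.27 for RBM39 and 0.40 for NR1H3. Each of them also had its smallest change in cow 5, where the changes ran from -0.07 to 0.12. Spearman's rho was 0.839 to 0.951, and without REST cows 1 and 2, the 2 arrays farthest from the median of KLF11, r was 0.878 to 0.953. The genes were picked by their r over these same arrays. These values and the small changes in cow 5 therefore follow in part from that choice. Among the members, r with KLF11 over the 12 arrays was 0.90 for KLF10, 0.83 for KLF4, 0.63 for KLF6, 0.06 for KLF3, -0.11 for KLF15, -0.46 for KLF5 and -0.60 for KLF13.

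When the 6 changes per cow were compared in place of the 12 signals, other genes came first. They were SLC5A9, a sugar transporter (r = 0.992), IMPDH2, an enzyme of guanine nucleotide synthesis (r = 0.987), ACOT8, a peroxisomal thioesterase (r = 0.987), RCC1L (r = 0.982) and CEACAM1, an adhesion molecule (r = 0.982). Their mean changes lay between -0.13 and 0.02, and all 5 were lower in REST in cow 5, by -0.93 for SLC5A9 and by -0.56 to -0.41 for the others. They therefore resembled KLF11 in the order of the cows and not in the difference between the periods. They were picked from 7330 genes by r over only 6 points. The high r and the low value in cow 5 follow in part from this choice. How many genes without a link to KLF11 would reach such an r was not tested. Without cows 5 and 6, the 2 changes farthest from the median of KLF11, r over the remaining 4 was 0.906 for SLC5A9, 0.972 for IMPDH2, 0.952 for ACOT8, 0.987 for RCC1L and 0.505 for CEACAM1. For the members, r over the 6 changes was 0.68 for KLF10, 0.61 for KLF6, 0.52 for KLF5, 0.39 for KLF4, 0.23 for KLF13, -0.01 for KLF3 and -0.02 for KLF15.

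**Figure D4:**
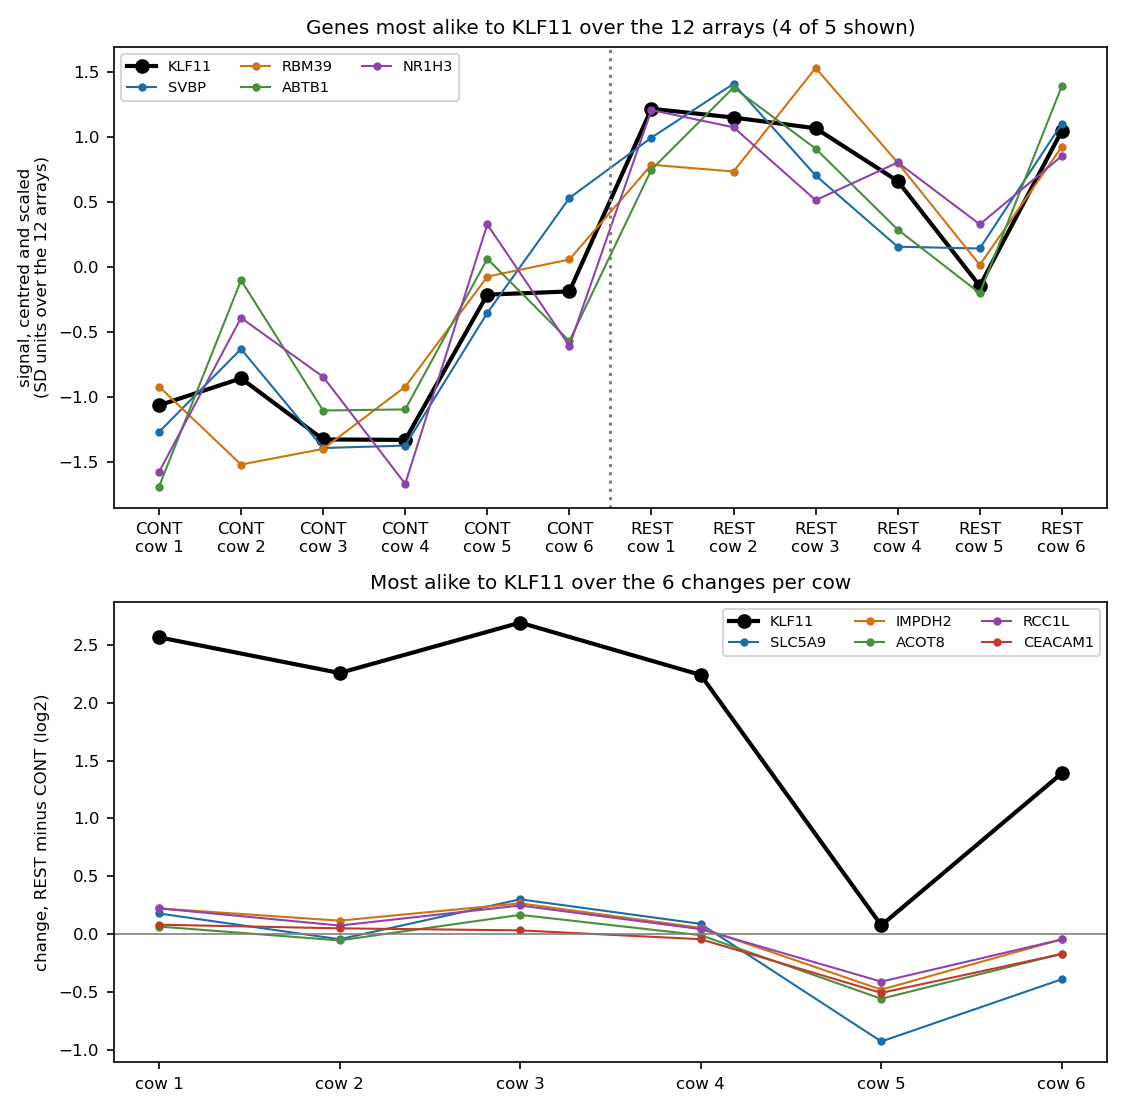
Upper panel: signal of KLF11 and of 4 of the 5 genes most alike to it over the 12 arrays, each centred and scaled to SD units. Lower panel: change per cow (REST minus CONT, log2) of KLF11 and of the 5 genes most alike to it over the 6 changes. In the upper panel, cows 1 to 4 separate by period and the CONT and REST signals of cow 5 lie close together. In the lower panel, all lines have their lowest point in cow 5. The genes of each panel were picked by their r with KLF11 over the values shown.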

How the data were processed

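Mammary RNA of 6 cows in 2 periods was hybridised to one-colour Agilent arrays. Per the file headers and the methods, the authors obtained an intensity per spot from the scans in Agilent Feature Extraction 11. The deposited intensity is background-subtracted and detrended and was not scaled between arrays. The deposited series table held the same intensities in all 45220 cells per array.

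Here the processed intensity was log2-transformed, marked spots (1 to 13 per array) were left out, and repeat spots of a probe were averaged. From each array its 75th percentile, taken over non-control spots, was subtracted. Symbols came from the RefSeq identifiers (27131 of 43653 probes, 62.2%). A probe was tested when well above background on every array of at least 1 period (19405 probes, 7932 genes). REST was compared with CONT in limma 3.58.1 (R 4.3.3) with the cow as a fixed block, two-sided, with Benjamini-Hochberg adjustment over all tested probes and a threshold of 0.1. The fit was tested on simulated data. A gene was represented by its tested probe of highest mean signal. The animal names in the labels pair the arrays: deviations from the group means correlated with r of 0.384 to 0.580 within a cow and of -0.347 to 0.129 between cows. The number of arrays limits the precision.

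The members, the lists and the naming rule were chosen with earlier results of these data known. By this rule, all members were named, at most 4 called genes per list by size of change, and the 5 genes most alike to KLF11 over 12 arrays and over 6 changes. Values are left out for 1 gene that the rule names. The gene table follows a newer cattle assembly than the grid of the arrays does, so no positions or sequences are given. Python 3.11.15, pandas 2.3.3 and matplotlib 3.10.9 were used for tables and plots. The alternatives were other pairings, slide as a block, other scaling, background correction and filters, another variance model, and cows left out.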

Additional observations from a re-analysis of the deposited data

How the results depend on the processing

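In the fit paired by cow, 3105 probes were called. This fell to 837 with no replicate block, 1899 with slide as a block in place of the cow and 388 with no filter on dim probes. It fell to 723 with an ordinary unpaired t-test of equal variance after Benjamini-Hochberg adjustment. The methods name moderated t-tests and state no pairing. With 1 cow left out it was 1045 to 3253, and without the block as well 194 to 616. Of the members, 4 were called in the paired fit and 2 (KLF4 and KLF11) with no filter. With 1 cow left out, 3 to 4 were called, and without the block as well 2 to 3. These counts of members, chosen by the same values, are no test of them. The call of KLF13 was lost without cow 1, 2 or 4, although its change stayed at -0.30 to -0.28 there. In these 3 fits fewer probes were called in all (1045 to 1534). The call also depended on the probe (not called with the mean of its probes). Of the partner and pathway genes, 6 were called in the paired fit, 2 with no replicate block, 1 with no filter, 3 with probes well above background on all 12 arrays and 2 with the ordinary t-test. With 1 cow left out, 2 (without cow 1 or 2) to 10 (without cow 5) were called, and without the block as well 0 to 3. Of the other KLF and SP genes, 0 were called under any alternative. The cause of these differences was not tested.

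The change of KLF15 (0.015) turned to -0.050 without cow 4 and -0.0038 without cow 6, and lay between -0.050 and 0.057 with any cow left out. The other changes that turned sign were near 0 as well. With 1 cow left out, they ran from -0.22 to 0.026 for SLC5A9, from -0.027 to 0.12 for IMPDH2 and from -0.024 to 0.11 for RCC1L. With cows 5 and 6 left out, they were 0.13 for SLC5A9, 0.042 for ACOT8 and 0.030 for CEACAM1. The change was refitted under the alternatives for 30 genes, the tested members, the called genes of the lists and the genes most alike to KLF11, and not for other genes named with a value. Of 807 such values, 578 kept their direction and their side of the threshold, 212 lost the call and 17 changed sign. Since most of the 30 were called in the paired fit, these counts say little about calls gained. Normexp was run on the median spot signals, an alternative chosen after seeing the data, since the planned version on mean signals could not be run. So were the fits without the block that leave out a cow, and the one without cows 5 and 6. Slide 3, with the dimmest arrays, limits which genes could be tested.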
